A study of Saccharomyces cerevisiae
Saccharomyces paradoxus with 24 samples.

Results

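The promoters of the genes for the proteins of the large ribosomal subunit in Saccharomyces cerevisiae are described here through deposited windows of 301 bp, each centred on a peak summit of Rap1 binding. A window was taken as a large-subunit (RPL) window when its midpoint lay 0 to 500 bp upstream of the start of the open reading frame (ORF) of an RPL gene on the sacCer3 genome, and 67 windows met this rule while 1051 did not. They belonged to 67 of the 76 RPL genes in the annotation, with 1 window for each gene. The rule used positions only, but the windows it chose from were selected on signal. The authors called them as peaks in the 0 min ChIP over a control without the tag. Every window was thus selected for Rap1 signal at 0 min, the time to which later times are compared here. Rap1 was immunoprecipitated through its V5 tag (ChIP-seq) in 16 libraries from 2 strain isolates, called replicates 1 and 2, at 0, 5, 10, 15, 20, 30, 45 and 60 min after 7.5 µM rapamycin, and 2 input libraries of sonicated chromatin without immunoprecipitation were used at 0 min. The 0 min cells received the solvent DMSO, for 60 min by the sample labels. In this anchor-away design rapamycin joins an FRB domain on Rap1 to an FKBP12 domain on a ribosomal protein, which carries Rap1 out of the nucleus.

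All cells, the 0 min cells included, shared a genotype. They carried Rap1(134)-FRB_2xV5 and the anchor RPL13A-2xFKBP12::TRP1, together with TOR1(S1972I) and fpr1::NAT. They were also hmlalphadelta::UniqueHMLwithSNPs, hmrdelta::HygMX and bar1delta::k.l.URA3 in a W303 background, with the markers ura3, lys2, can1-100, trp1-1 and his3-11,15 and a mutant allele of LEU2. The anchor was therefore a product of RPL13A, itself among the 67 genes. The TOR1 allele and the loss of FPR1 are known to make yeast growth resistant to rapamycin. Fixed cells of S. paradoxus with V5-tagged Rap1, grown without rapamycin, went into every sample. A window's signal is its reads per 1000000 S. paradoxus reads of the library, where the authors left rDNA reads out of the S. paradoxus count. Both replicates came from separate strain isolates, but nothing in the labels gives the day of growth, so the p-values measure the spread between these libraries. A library without the V5 tag was not analysed here, so the signal that an untagged strain would leave in these windows is not known.

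Ribosomal protein genes are among the most heavily transcribed genes of growing yeast. Rap1 binds their promoters as an activator, and at most of them the factors Fhl1, Ifh1 and, at some, Hmo1 assemble beside it. The genome duplication left many of these genes as A and B copies whose proteins are nearly or fully identical while their promoters differ. No promoter sequence of this genome build was used here.

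Among the 16 ChIP libraries the S. paradoxus reads ran from 4397759 to 9219038, and the median RPL window held 1105 to 5454 reads. The lowest read number in any RPL window was 43. At 0 min replicate 2 was above replicate 1 at all 67 RPL windows, by a median of 1.48 times, against 1.47 times over all windows. This gap enters every share of the 0 min signal, so each share is given for both replicates. It also enters every test against 0 min on the spike-in scale, so the calls of different windows there are not independent of each other. The tests were also run with each library left out, with the replicate as a block, and relative to the median window of the same library.

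Before rapamycin the RPL windows carried strong Rap1 signal. Their median was 623 in replicate 1 and 931 in replicate 2, against 96.7 and 142 over all windows. The windows of the small-subunit (RPS) genes, found by the same rule, stood near them at 587 and 859 (49 windows, 3 of them also RPL windows at shared promoters). Divided by the 0 min input of the same isolate, the median RPL window stood at 2.99 and 2.10, and the median of all windows at 0.532 and 0.359. Here replicate 1 was the higher, unlike in the signal itself. Each term is per S. paradoxus reads of its own library, so a ratio under 1 does not by itself mean less ChIP than input. The RPL median over the means of the replicates was 2.52, and 4.26 with each library divided by its own total over all windows. The RPL windows were not alike, since their 0 min means over the replicates ran from 51.6 at RPL24B to 4199 at RPL2B.

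Rap1 signal fell more slowly at these promoters than at the median of all windows. After 10 min the median RPL window held 87.1% and 77.0% of its 0 min signal in replicates 1 and 2, where the median of all windows held 50.6% and 46.5% and the 344 windows upstream of ORFs that are no ribosomal protein genes held 43.6% and 38.1%. After 20 min these medians were 62.6% and 46.1% at RPL windows, 25.6% and 16.5% over all windows and 19.0% and 13.4% upstream of the other ORFs. After 60 min they were 35.4% and 31.7%, 18.1% and 18.2% and 14.0% and 14.5%. The RPS windows followed the RPL windows, with 86.8% and 74.5% left at 10 min and 33.6% and 30.8% at 60 min. All windows include peaks over tRNA genes and Ty elements. The paper describes these as having relatively short apparent residence times and left them out of its own analysis. No group outside the ribosomal protein genes with a like 0 min signal was set beside the RPL windows.

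**Figure D1:**
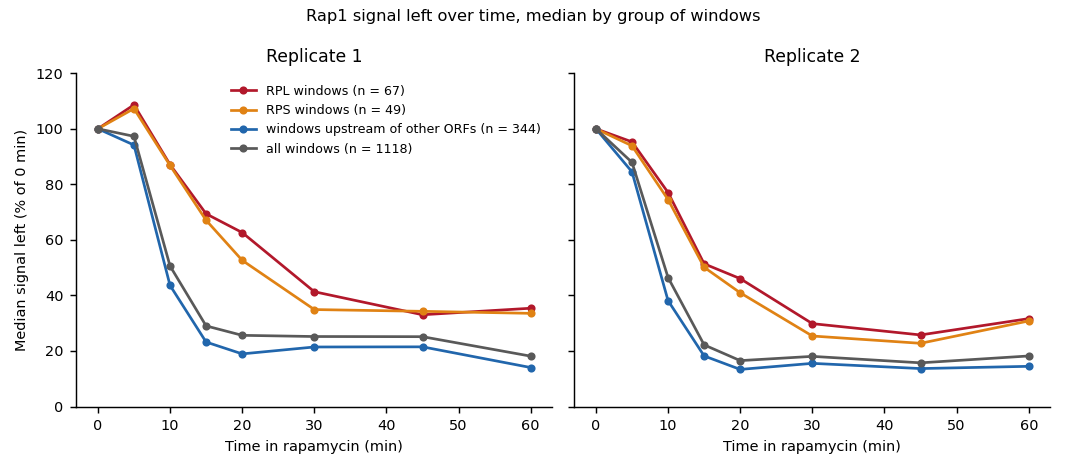
Median Rap1 signal left as percent of the 0 min signal (y axis) against minutes in rapamycin (x axis), for RPL windows, RPS windows, windows upstream of other ORFs and all windows, with replicate 1 on the left and replicate 2 on the right. On the spike-in scale the RPL line passes 87.1% and 77.0% at 10 min and 35.4% and 31.7% at 60 min, where the line of all windows passes 50.6% and 46.5% and 18.1% and 18.2%.

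The test against 0 min gave the same order at 10 min, when a smaller share of RPL windows than of all windows was called lower. At 15 min these shares were nearer to each other, and from 20 min on they were close. Log2(signal + 1) at each time was set against that at 0 min in limma. The p-values were adjusted over all windows by Benjamini-Hochberg, with a threshold of 0.05. At 10 min 4 of the 67 RPL windows were lower, namely RPL18B, RPL22A, RPL24B and RPL2B, where 73.1% of all windows were lower. At 15 min 58 RPL windows were lower (all windows 94.3%), at 20 min 61 (all windows 94.3%), at 30 min 65 (all windows 94.8%), at 45 min 65 (all windows 95.1%) and at 60 min 64 (all windows 96%). No RPL window was higher than at 0 min at any of these times by this test, and at 60 min none was higher at an unadjusted p under 0.05. At 5 min no window of any kind passed in either direction, and no RPL window had an unadjusted p under 0.05. The RPL count at 10 min rests on single libraries, since it was 23 without replicate 1 at 0 min, 14 without replicate 2 at 10 min, 2 without replicate 2 at 0 min and 1 without replicate 1 at 10 min. With the replicate as a block it was 15, where 879 of all windows were lower. Counts over all windows with a library left out are not given here. Without replicate 2 at 0 min the RPL count was also smaller at 15 min (23) and 20 min (33), and without replicate 1 at 15 min it was 29 at that time. The median log2 change of the RPL windows was -0.28 at 10 min, -0.92 at 20 min, -1.78 at 45 min and -1.58 at 60 min, where that of all windows was -1.02, -2.24, -2.27 and -2.40.

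These directions belong to the spike-in scale. In an alternative, each library was scaled to its own total over all windows, a total that itself fell over the course. At 10 min 2 RPL windows were lower and 13 higher, where 727 of all windows were lower and 80 higher. At 60 min 31 RPL windows were lower and 22 higher, where 862 of all windows were lower and 130 higher. The RPL count lower was 5 at 15 min, 9 at 20 min, 36 at 30 min and 39 at 45 min on that scale. That scaling moved the median log2 change of all windows by 0.45 at 10 min and 1.33 at 60 min.

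A second fit removed any shift shared by a library. Here the median log2 signal over all windows was subtracted within each library before the test, so that a window could fall less or more than the median window. At 10 min 66 of the 67 RPL windows fell less than the median window, where 45.7% of all windows did, and RPL18B alone fell more (all windows 26.8%), a call lost without replicate 1 at 10 min. At 20 min 64 fell less (all windows 46.1%) and RPL18B again fell more (all windows 28.1%). At 60 min 54 fell less (all windows 43.5%) and 6 fell more (all windows 26.7%), namely RPL12A, RPL14B, RPL18B, RPL22A, RPL42A and RPL8B. Against the median of windows upstream of other ORFs, 3 RPL windows fell more. Of the 49 RPS windows 47 fell less than the median window at 10 min, 44 at 20 min and 37 at 60 min. The median RPL window stood 0.94 above the median window on the log2 scale at 10 min, 1.48 at 20 min, 0.58 at 45 min and 0.95 at 60 min. Set against the total over all windows in place of the median window, this fit is the one scaled to the total above. Its 13 RPL windows that fell less at 10 min, and 22 that fell less and 31 that fell more at 60 min, are the same calls and no second check.

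Much of the RPL signal was lost between 20 and 45 min. In that interval 29 of the 67 RPL windows fell further (limma on the spike-in scale, 45 min against 20 min, adjusted over all windows), where 7.96% of all windows did. This contrast was chosen after the values were seen, and its count was 19 without replicate 1 at 20 min, 9 without replicate 2 at 20 min and 12 without replicate 1 at 45 min. It was 41 with the replicate as a block and 43 when scaled to the total over all windows. The median log2 change over the interval was -0.69 at RPL windows, -0.60 at RPS windows and 0.03 over all windows. Of the 49 RPS windows 17 fell further in the main fit, so the late fall was not particular to RPL windows. The end of the course differed between replicates, since 60 min lay above 45 min at 39 of the 67 RPL windows in replicate 1 and at 65 in replicate 2, and at 121 and 858 of all windows. The first 5 min differed as well, with 62 RPL windows above their 0 min signal in replicate 1 and 7 in replicate 2 (92.5% and 10.4%), where 42.0% and 16.7% of all windows were.

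Signal at 10 min lay above that at 0 min at 9 of the 67 RPL windows in replicate 1 and at 2 in replicate 2. Over all windows these counts were 44 and 22, and among the 49 RPS windows 6 and 3. The windows of RPL21A and RPL21B were among the RPL windows counted. RPL21B held 142% and 114% of its 0 min signal at that time and RPL21A 121% and 105%, and these were the only RPL windows above 0 min in both replicates then. Neither passed the test against 0 min (limma adjusted p = 0.247 and 0.565). By 60 min RPL21B held 35.5% and 33.0% and RPL21A 21.6% and 18.7%. Both were named after their values were seen.

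How much signal was left at 60 min varied 9.18 times among the RPL windows, from 9.18% and 8.22% in the replicates at RPL42A to 83.1% and 76.7% at RPL19B. 14 of the 67 windows held over 50% in both replicates and 11 under 20% in both, and over all windows 8.77% held over 50% and 52.1% under 20% in both. The order of the windows was nearly the same in both replicates (Spearman's rho 0.993, Pearson's r 0.991 over 67 windows that share their libraries, given as a description). It was not the order of the 0 min signal (rho 0.00463 between the 0 min signal and the share left at 60 min). Over all windows that rho was 0.188, and the 0 min signal is also the denominator of the share. The order of the RPL windows was weakly that of the distance to the ORF start (rho 0.252). The share left at 10 min ordered the windows differently from that at 60 min (rho 0.311).

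**Figure D2:**
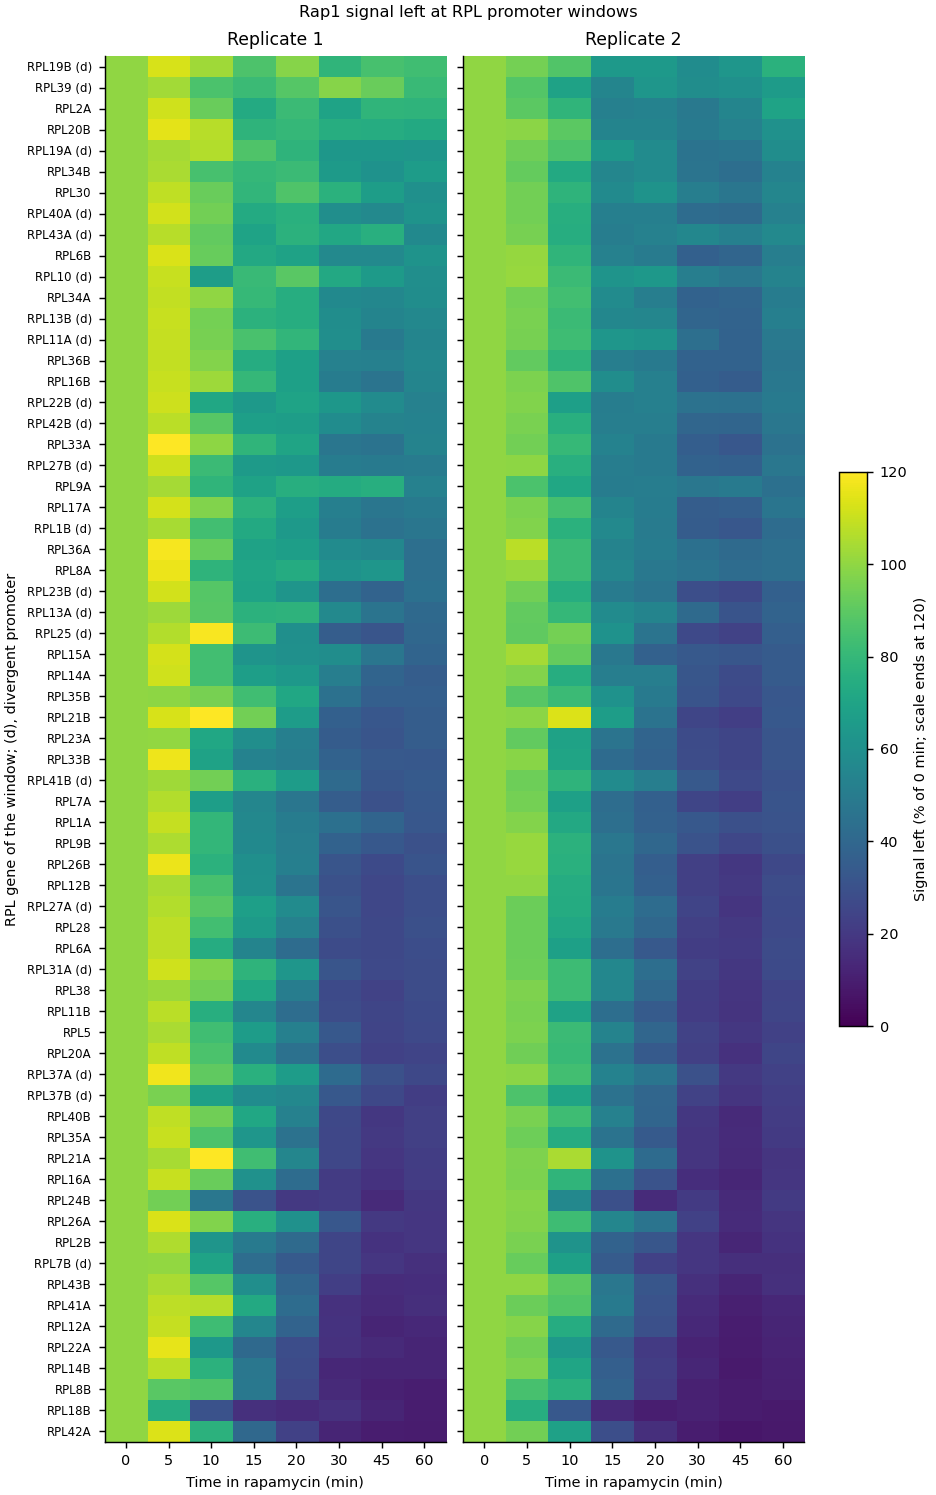
Rap1 signal left at 66 of the 67 RPL windows as percent of 0 min (colour, scale ending at 120%) by minutes in rapamycin (x axis) in replicate 1 (left) and replicate 2 (right), with windows ordered by the share left at 60 min and (d) marking a divergent promoter. RPL19B, RPL39 and RPL2A lie at the top, with 83.1% and 76.7% left at RPL19B in the replicates, and RPL42A lies at the bottom with 9.18% and 8.22%.

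The 4 windows that kept the most were those of RPL19B (YBL027W, chrII:167918-168218), RPL39 (YJL189W, chrX:75401-75701), RPL2A (YFR031C-A, chrVI:221747-222047) and RPL20B (YOR312C, chrXV:901385-901685), in sacCer3 coordinates and upstream of the ORF. The signal at RPL19B, whose protein forms a bridge to the small subunit, was 249, 281, 256, 215, 245, 196, 212 and 207 in replicate 1, and 411, 390.4, 360.1, 265, 266, 241, 259 and 315 in replicate 2 at 0, 5, 10, 15, 20, 30, 45 and 60 min, the order of times used for each list of values here. At RPL39, a small protein of the tunnel through which new chains leave the ribosome, it was 1145, 1184, 985, 939, 1014, 1124, 1059.7 and 933 in replicate 1, and 1727, 1514, 1191, 944, 1086, 1014, 1043 and 1136 in replicate 2. From 15 min on both windows showed little further loss, and their 60 min values lay below the 0 min values of the same replicate. The log2 change at 60 min was -0.32 (SE 0.272, limma adjusted p = 0.238) at RPL19B and -0.45 (SE 0.272, limma adjusted p = 0.103) at RPL39, so neither passed. Without replicate 1 at 0 min both passed as lower (adjusted p = 0.026 and 0.0154), and without replicate 2 at 60 min RPL19B did (adjusted p = 0.0422). Without replicate 2 at 0 min the log2 change of RPL19B was 0.037 (adjusted p = 0.908).

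RPL2A encodes a protein beside the centre where peptide bonds form, and its signal was 509.6, 567, 473, 373, 416, 354, 401 and 397 in replicate 1, and 857, 769.8, 672, 449.6, 456, 418, 466 and 595 in replicate 2. At RPL20B it was 287, 329.9, 307, 224, 229, 214, 214 and 209 in replicate 1, and 478, 474, 428, 258, 259, 237, 252 and 289.8 in replicate 2. At both windows the 60 min value lay above the 45 min value in replicate 2 and below it in replicate 1. RPL20B passed as lower at 60 min, with a log2 change of -0.59 (SE 0.272, limma adjusted p = 0.0325), and RPL2A did not, at -0.44 (SE 0.272, limma adjusted p = 0.107). With the replicate as a block RPL2A (adjusted p = 0.0314) and RPL39 (adjusted p = 0.0313) passed as lower too. RPL2A also passed without replicate 1 at 0 min (adjusted p = 0.00787) and without replicate 2 at 60 min (adjusted p = 0.0171). Leaving out replicate 2 at 0 min ended the call at RPL20B (adjusted p = 0.49), and so did leaving out replicate 1 at 60 min (adjusted p = 0.261). Scaled to the total over all windows, all 4 were higher at 60 min than at 0 min. Relative to the median window all 4 fell less, by 1.94 at RPL20B to 2.20 at RPL19B on the log2 scale.

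The 5 windows that kept the least were those of RPL42A (YNL162W, chrXIV:330827-331127), RPL18B (YNL301C, chrXIV:64613-64913), RPL8B (YLL045C, chrXII:48759-49059), RPL14B (YHL001W, chrVIII:103920-104220) and RPL22A (YLR061W, chrXII:262806-263106). At RPL42A, whose protein lies in the site that discharged tRNA leaves from, the signal was 439, 499, 339, 178, 103, 55.3, 41.8 and 40.3 in replicate 1, and 720.4, 682, 496, 206, 118, 69.2, 53.4 and 59.2 in replicate 2. At RPL18B it was 124, 91.9, 37.5, 20.4, 18.4, 21.4, 15.6 and 11.9 in replicate 1, and 186, 139, 61.5, 26.3, 18.4, 21.1, 16.9 and 16.3 in replicate 2. RPL18B lost the most in the first 10 min, when 30.3% and 33.0% was left, and it was already at 14.9% and 9.86% at 20 min.

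The other windows of this group lost their signal later. At RPL8B it was 494, 441, 430.2, 237, 127, 71.2, 54.9 and 49.8 in replicate 1, and 716, 611, 547, 273, 147, 77.9, 64.8 and 74.1 in replicate 2. At RPL14B it was 406, 437, 312, 194, 112, 55.0, 49.8 and 50.1 in replicate 1, and 613, 593, 434, 222, 134, 78.0, 51.7 and 66.9 in replicate 2. At RPL22A, a gene not needed for growth, it was 347, 401, 221, 142, 98.8, 59.8, 49.8 and 42.6 in replicate 1, and 554, 525, 356, 185, 114, 65.1, 49.9 and 66.8 in replicate 2. Between 63.9% (RPL22A) and 87.1% (RPL8B) was left at 10 min in replicate 1 at these windows. The log2 changes of all 5 windows at 60 min ran from -3.50 at RPL42A to -3.02 at RPL22A (SE 0.272), and the limma adjusted p was 1.62e-27 or smaller. Relative to the median window RPL42A fell more, with a log2 difference of -0.97 (SE 0.13, limma adjusted p = 4.62e-07). The calls of RPL14B and RPL22A as falling more than the median window were lost when the median was taken over windows upstream of other ORFs (adjusted p = 0.225 and 0.456).

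The windows with the highest 0 min signal were those of RPL2B (YIL018W, chrIX:316227-316527), RPL1B (YGL135W, chrVII:254190-254490), RPL11A (YPR102C, chrXVI:731971-732271), RPL6A (YML073C, chrXIII:124350-124650) and RPL12A (YEL054C, chrV:53565-53865). RPL2B was the strongest, with 3593, 3801, 2241, 1756, 1485, 906, 627 and 688 in replicate 1, and 4806, 4599.7, 2973, 1815, 1546, 922, 615 and 853 in replicate 2. At RPL1B, a gene for the mobile stalk beside the exit site, the signal was 2130.5, 2223, 1787, 1557, 1385, 1071, 963 and 1001 in replicate 1, and 2840.1, 2756, 2174, 1601, 1419, 989, 926 and 1205 in replicate 2. At RPL11A, whose protein joins the subunit as part of the particle around its smallest RNA, it was 1621, 1772, 1549, 1387, 1279, 963, 792 and 886 in replicate 1, and 2311, 2202, 1913, 1453, 1423, 1012, 872 and 1126 in replicate 2. RPL1B and RPL11A held more at 60 min than RPL2B did, with 47.0% and 42.4% and 54.7% and 48.7% against 19.1% and 17.7%.

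At RPL6A the signal was 1498, 1617, 1115, 814, 634, 408, 393 and 425 in replicate 1, and 2105, 1961, 1432, 908, 706, 457, 429 and 579.8 in replicate 2. At RPL12A, a protein at the base of the stalk that binds translation factors, it was 1491, 1630.2, 1232, 823, 569, 265, 189 and 207 in replicate 1, and 2103, 2063, 1564, 877, 616, 295, 198 and 257 in replicate 2. All 5 were lower at 60 min, with log2 changes from -2.94 at RPL12A to -0.95 at RPL11A (limma adjusted p of 0.000512 or smaller). RPL12A also fell more than the median window, with a log2 difference of -0.41 (SE 0.111, limma adjusted p = 0.0023), a call lost without replicate 2 at 60 min (adjusted p = 0.0537) and against windows upstream of other ORFs (adjusted p = 0.876). The strong windows were thus spread over the range of shares left, from 13.0% at RPL12A to 51.7% at RPL11A as the mean of the replicates.

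RPL13A, the gene that carries the anchor, had a window at chrIV:308045-308345, 229 bp before its ORF and 406 bp before that of RPS16B on the other strand. Its signal was 421, 431, 375, 325, 327, 239, 195 and 173 in replicate 1, and 660.2, 601, 527, 381, 358, 273, 207 and 253 in replicate 2. At 60 min 41.1% and 38.3% was left, and its rank by share left was 28 of 67. The log2 change was -1.33 (SE 0.272, limma adjusted p = 1.27e-06) on the spike-in scale and 0.046 when scaled to the total over all windows. The window of RPL13B, which also lies between an RPL and an RPS gene, held 56.0% and 51.8%.

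The A and B copies of the same protein often lost Rap1 to different extents. Both copies had a window in 28 pairs. For each pair the log2 change at 60 min of the B window was subtracted from that of the A window in the fit relative to the median window, with a 95% interval from both standard errors that treats the windows as separate and is not adjusted over the pairs. The interval excluded 0 in 24 of the 28 pairs, where the A copy kept more in 10 and the B copy in 14. Pairs of RPL windows that are not paralogs were not compared, so whether this count is particular to paralogs is not known. In all 28 pairs the same copy kept more in both replicates. The median size of the difference was 0.96 on the log2 scale. At 10 min the interval excluded 0 in 3 pairs, RPL2 and RPL37 among them. Whether reads from stretches that both copies share were split between them was not tested.

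**Figure D3:**
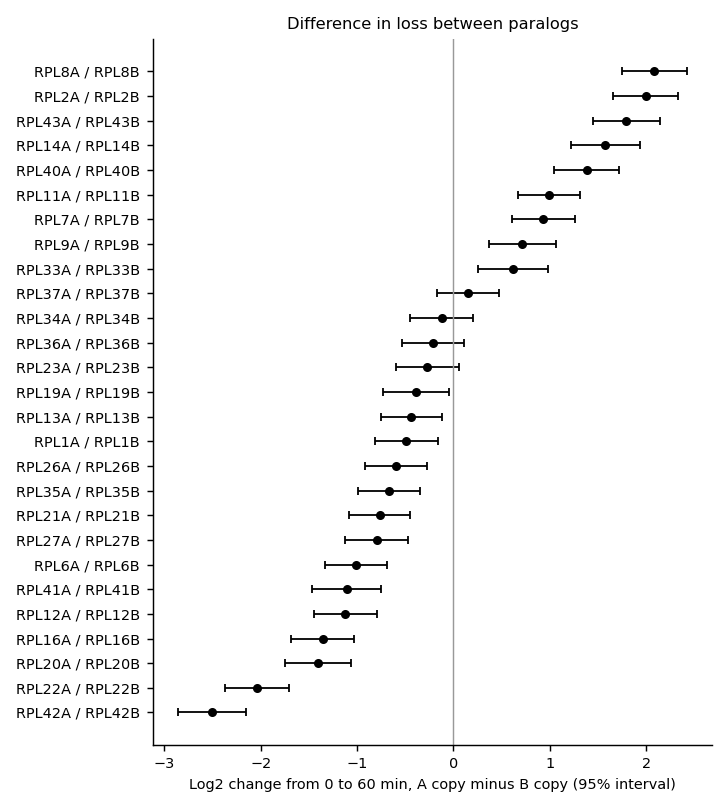
Difference between the A and the B copy in log2 change from 0 to 60 min (x axis, points, with 95% intervals as bars) for 27 of the 28 pairs of RPL paralogs (y axis), where a positive value means that the A copy kept more. RPL8 lies at 2.09 and RPL42 at -2.50, and the intervals of 23 of the pairs drawn exclude 0.

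The pairs RPL42, RPL8 and RPL22 were among those that differed the most. The partner copies not placed above were RPL42B (YHR141C, chrVIII:382980-383280), RPL8A (YHL033C, chrVIII:36109-36409) and RPL22B (YFL034C-A, chrVI:65010-65310). RPL42A held 9.18% and 8.22% at 60 min and RPL42B 53.1% and 47.5%, a difference in log2 change of -2.50 (SE 0.171, 95% interval -2.86 to -2.15). RPL42B stood at 2.50 and 2.20 times RPL42A at 0 min and at 14.4 and 12.7 times at 60 min.

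The signal at RPL42B was 1098, 1179.9, 975, 741, 734, 640.3, 591 and 583 in replicate 1, and 1583, 1517, 1199.9, 812, 812, 628, 621 and 752 in replicate 2. At RPL22B it was 905, 1003, 645, 586, 631, 573, 524 and 477 in replicate 1, and 1313, 1278, 891, 666, 689, 596, 588 and 642 in replicate 2. At RPL8A it was 254, 295, 197, 179, 188, 155, 159.6 and 112 in replicate 1, and 396, 401, 325, 219, 191, 182, 167 and 173 in replicate 2. Between 15 and 30 min these 3 windows lost a smaller share of their signal than their paralogs did in both replicates. RPL22A held 12.3% and 12.0% at 60 min and RPL22B 52.7% and 48.8%, a difference of -2.04 (SE 0.161, 95% interval -2.37 to -1.71). RPL8A held 44.0% and 43.7% and RPL8B 10.1% and 10.4%, a difference of 2.09 (SE 0.163, 95% interval 1.75 to 2.42). At RPL8 the copies changed order, since RPL8B was above RPL8A at 0 min by 1.95 and 1.81 times and RPL8A was above RPL8B at 60 min by 2.24 and 2.34 times.

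**Figure D4:**
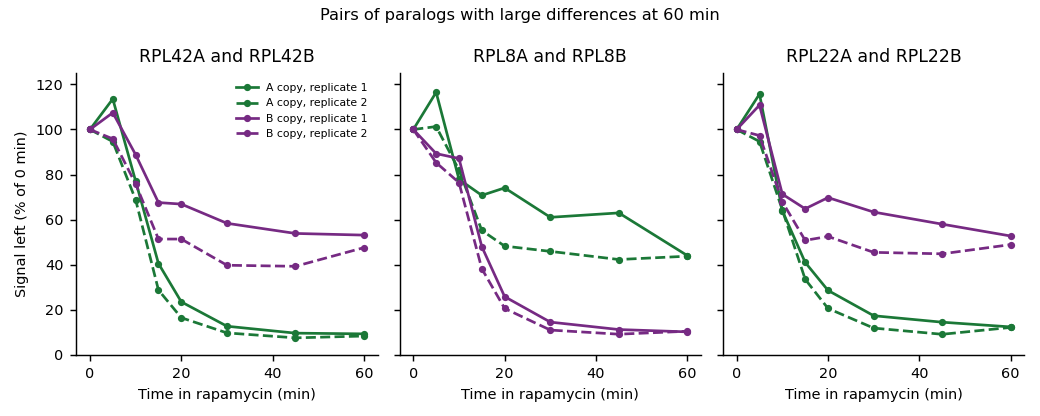
Rap1 signal left as percent of 0 min (y axis) against minutes in rapamycin (x axis) at both copies of RPL42, RPL8 and RPL22, with replicate 1 as solid and replicate 2 as dashed lines. RPL42A is at 77.1% and 68.8% by 10 min in the replicates and at 23.4% and 16.4% by 20 min.

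RPL2 followed in size with 2.00 (SE 0.162, 95% interval 1.66 to 2.33). RPL2B was the stronger copy at 0 min by 7.05 and 5.61 times, the widest ratio of any pair in replicate 1, and by 1.73 and 1.43 times at 60 min. RPL43A held 56.9% and 56.6% and RPL43B 15.8% and 16.5%, although both started within a ratio of 0.901 and 1.03 of A to B. RPL20A held 24.8% and 25.0% and RPL20B 72.8% and 60.7%, from starting ratios of 1.08 and 1.00. Both pairs had copies with like levels before rapamycin and different shares after it. Over the 28 pairs the copy that was stronger at 0 min in replicate 1 kept more at 60 min in 12 and less in 16.

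The pairs whose interval held 0 were RPL23, RPL34, RPL36 and RPL37. Their differences were -0.27 (SE 0.157, 95% interval -0.59 to 0.05) at RPL23, a protein of a bridge to the small subunit, and -0.12 (SE 0.159, 95% interval -0.45 to 0.21) at RPL34. They were -0.22 (SE 0.155, 95% interval -0.54 to 0.11) at RPL36 and 0.15 (SE 0.154, 95% interval -0.17 to 0.47) at RPL37. These intervals do not show that the copies of a pair lost alike, as the bound at RPL34 reached -0.45. RPL19, RPL1 and RPL13 had small differences whose intervals excluded 0, of -0.39, -0.49 and -0.44.

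Some RPL genes share their promoter with a neighbour. In 21 of the 67 windows an ORF on the opposite strand also started within 500 bp, and these are called divergent, while the other 46 are called single. A divergent window cannot be assigned to either gene from these data. The median divergent window held 49.9% and 47.4% at 60 min in the replicates and the median single window 30.4% and 28.6%. At 10 min the medians were 88.9% and 76.6% and 85.5% and 77.6%, and at 0 min the median signal was 640.4 and 975 at divergent and 618 and 916 at single windows. The groups overlapped widely at 60 min, from 16.4% to 79.9% at divergent and from 8.70% to 73.6% at single windows. Relative to the median window 20 of the 21 divergent windows fell less at 60 min and none fell more, and 34 of the 46 single windows fell less and 6 fell more. The difference between the kinds of promoter was not tested, because promoters are not replicates of a condition.

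**Figure D5:**
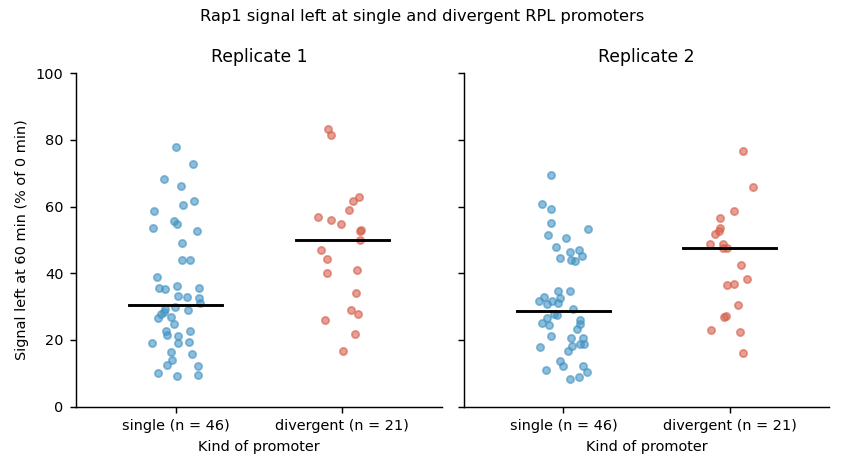
Rap1 signal left at 60 min as percent of 0 min (y axis) at single and divergent RPL promoters (x axis), 1 point per window, with the median as a black line, in replicate 1 (left) and replicate 2 (right). The medians lie at 30.4% and 28.6% for single and 49.9% and 47.4% for divergent promoters in the replicates, and the points overlap.

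Among the 28 pairs, 9 had a copy of each kind. The divergent copy kept more in 8 of them, with the interval excluding 0 in 7, RPL42 and RPL22 among them. The single copy kept more in 1, the RPL7 pair. There RPL7A (single) held 33.3% and 31.0% and RPL7B (divergent) 16.6% and 16.2%, a difference of 0.93 (SE 0.16, 95% interval 0.60 to 1.26). RPL8 and RPL2 had both copies single.

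Apparent residence times put these courses in a single number. Signal relative to 0 min was fitted for each window and replicate as a decay to a plateau, and the residence time is 1 divided by the geometric mean of the 2 rates. 65 of the 67 RPL windows could be fitted and 61 passed, with p under 0.05 for the log rate in both replicates, and their median was 19.1 min (replicate medians 22.6 and 15.1 min). The median over the 1016 windows that passed in the whole set, from which windows over tRNA genes and Ty elements were not removed, was 9.50 min. Over 44 RPS windows it was 17.1 min. RPL windows that passed ran from 8.22 min at RPL18B to 33.4 min. RPL10, RPL19B, RPL21B, RPL2A and RPL39 were among those that did not pass, and RPL19B, RPL2A and RPL39 were also the 3 windows that kept the most. The fitted plateau lay below 0 in a replicate at 10 of the 61 RPL windows that passed. The same held for 5 of the 44 RPS windows and for 35 of the 1016 windows in the whole set. The RPL median became 34.9 min with the plateau held at 0 and 10.8 min without the 0 min sample.

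A measure without a model gave the same order of groups. The time at which a window first fell under 50% of its 0 min signal, interpolated between times, had a median of 25.5 and 17.6 min at RPL windows and of 10.2 and 9.57 min over all windows. 18 RPL windows in replicate 1 and 4 in replicate 2 did not reach 50% by 60 min, nor did 109 and 67 of all windows. This measure was added after the values were seen.

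Windows upstream of other genes tied to the large subunit were counted by the same rule, which 9.40% of all 6002 ORFs met. Of the genes for the ribosomal stalk, RPP0, RPP1B and RPP2A had a window, 3 of 5. RPP0 held 29.7% and 29.5% at 60 min, RPP1B 68.1% and 59.1%, and RPP2A 91.4% and 76.0%. RPP0 and RPP1B were lower (limma adjusted p = 2.27e-10 and 0.0172) and RPP2A, whose window is also that of RPS15, was not (adjusted p = 0.338). None of 9 regulators of ribosomal protein genes, RAP1, FHL1, IFH1, SFP1, HMO1, CRF1, ABF1, REB1 and TBF1, had a window upstream by the rule. The same held for 5 chaperones of newly made large-subunit proteins, RRB1, SQT1, SYO1, ACL4 and BCP1.

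The rule left out 9 RPL genes. RPL31B and RPL17B had a strong window just beyond the limit, at 527 and 530 bp with mean 0 min signals of 1600.1 and 1421, while RPL12A (497 bp) and RPL12B (487 bp) lay just inside it. The nearest upstream window of RPL29 lay at 625 bp, of RPL32 at 793 bp, of RPL24A at 799 bp and of RPL15B at 1284 bp. RPL3, whose protein reaches to the centre where peptide bonds form, had its nearest upstream window at 5986 bp, and RPL4A and RPL4B had theirs at 39662 and 22066 bp. Windows did lie within 8 of these 9 genes, past the ORF start and so outside the rule, by 31 bp at RPL32, 57 bp at RPL29, 227 bp at RPL24A, 244 bp at RPL17B, 455 bp at RPL3, 494 bp at RPL31B, 548 bp at RPL4A and 780 bp at RPL4B. Their mean 0 min signals ran from 70.0 at RPL31B to 182 at RPL3, where the lowest among the RPL windows was 51.6. At RPL15B the next window past the start lay beyond the end of the gene.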

How the data were processed

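Rap1 ChIP-seq was read from the authors' table of windows over 16 ChIP libraries and 2 inputs at 0 min. The authors used Bowtie2 against a modified sacCer3 concatenated with the CBS432 genome of S. paradoxus, called peaks with MACS3, and deposited the signal, the reads in 150 bp on either side of a summit per 1000000 S. paradoxus reads. The deposited S. paradoxus read counts are whole numbers for each library, and by the authors' account they leave out reads from the rDNA. CASAVA 2.2 and SAMtools are named in the submitters' processing notes. Each library has its own column. Converted back to reads, 100% of the values lay within 0.01 of whole numbers. A single table line that is no window was left out, and 14 columns of other inputs were not used.

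Gene positions came from the RefSeq R64 annotation, with strand read from the systematic names. Positions are 1-based. Changes were tested with limma 3.58.1 (R 4.3.3) after taking log2(signal + 1), which understates the change of weak windows, with time as a factor and all 16 ChIP libraries in the fit, 2-sided, adjusted over all windows. The estimated SE was 0.272 at every window, so the spread was pooled, and the smallest p-values say little about replication. Decays were fitted with nls and SSasymp. Scripts were tested on simulated data. Tables were handled in pandas 2.3.3 and numpy 2.4.6 under Python 3.11.15, with scipy 1.17.1, and plots were drawn in matplotlib 3.10.9.

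The members, lists, tests and alternatives were chosen with earlier results of these data known. Values in every sample are given for the 5 windows with the highest 0 min signal, the 5 with the largest and the 5 with the smallest share left at 60 min among windows with a 0 min signal of at least 50 (all 67 windows), RPL13A and the 4 pairs with the largest difference, except that a window and the comparisons that need it are not reported here, though counts and medians include it. Other members were named where they bound a range, pass a test alone or belong to a pair. By the labels a replicate number stands for a strain isolate, so the numbers pair the libraries. Deviations of same-numbered libraries from the mean of their time correlated over 28 pairs of times with values from -0.208 to 0.408 (median 0.168). The planned search for sequence motifs was not run, because no genome sequence was used here. Reads are not independent molecules, and read numbers limit the precision of weak windows. Alternatives covered the pseudocount, a signal minimum, the scaling, the replicate block, each library, a distance of 300 bp and the form of the decay.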

Additional observations from a re-analysis of the deposited data

How the results depend on the processing

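The count of RPL windows lower at 10 min was 4, and it was 9 with a pseudocount of 5, 2 when scaled to the total over all windows, 15 with the replicate block, and 1 to 23 when a library was left out. At 60 min it was 31 of 67 when scaled to the total, 29 of 29 within 300 bp of a start, and 54 to 67 when a library was left out. The count that fell less than the median window was 13 at 10 min and 22 at 60 min relative to the total, which is the same fit as scaling to the total. It was 28 and 23 of the 29 windows within 300 bp. The count lower at 45 than at 20 min was 9 to 21 when a library was left out. The median share left at 60 min was 33.5%, and it was 87.1% when scaled to the total and 28.4% within 300 bp. The median residence time was 34.9 min with the plateau at 0 and 10.8 min without the 0 min sample. The divergent minus single difference at 60 min was 19.7 percentage points, 17.7 without ribosomal protein partners, 18.1 with partners within 300 bp and 18.8 in replicate 2 alone. Scaled to the total, the log2 change at 60 min turned positive at RPL11A (0.43), RPL13A (0.046), RPL19B (1.05), RPL1B (0.22), RPL20B (0.79), RPL22B (0.40), RPL2A (0.93), RPL39 (0.93), RPL42B (0.39) and RPL8A (0.19), and relative to the total it turned negative at RPL2B (-1.06) and RPL6A (-0.46). The total over all windows itself fell over the course, and the cause of these changes of sign was not tested. Besides the counts above, the replicate block changed the calls of RPL2A and RPL39 at 60 min and no other call of a named window. The 24 pairs whose interval excludes 0 became 22 to 23 when a library was left out. Summing several windows of a gene changed nothing, since each gene had 1 window.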
